A study of Rattus norvegicus with 46 samples.

Results

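The genes of oxidative phosphorylation were followed through the livers and quadriceps muscles of rats, with the genes carried by mitochondrial DNA set against those carried in the nucleus. Members were the genes whose symbols mark subunits or some assembly factors of respiratory complexes I to V, with 1 row per symbol and a mean of at least 10 CPM (counts scaled to a common library total) in liver or quadriceps libraries. Of 32552 genes in the table, 112 rows under 108 symbols carried such a name, and 97 passed the level set, 13 mitochondrial and 84 nuclear. The 84 nuclear genes were 34 of complex I, 4 of complex II, 8 of complex III, 14 of complex IV, 17 of complex V and 7 assembly factors, and the mitochondrial genes were 7 of complex I, 1 of complex III, 3 of complex IV and 2 of complex V. The members nearest the level were Ndufaf8 at 12.8, Ndufaf7 at 13.9 and Ndufa12 at 14.0 CPM just inside it, and Ndufaf2 at 9.49, Atp5pb at 8.23 and Ndufa4l2 at 2.99 CPM just outside. The other 8 symbols left out were Cox4i2 at 0.796, Cox7a1 at 0.138, Cox6b2 and Ndufs6 at 0.133 and Ndufa1 at 0.00906 CPM in the tissue where each was higher, and Cox8c, Cox7b2 and Cox6c-ps1 with no count. Tests covered 95 members in liver, where Cox6a2 and Cox8b did not pass the filter on low counts, and 97 in quadriceps.

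Oxidative phosphorylation joins the respiratory chain to ATP synthase in the inner mitochondrial membrane. Complexes I and II pass electrons from NADH and succinate to ubiquinone, complex III passes them to cytochrome c and complex IV to oxygen, and complex V makes ATP from the proton gradient that results. Complexes I, III, IV and V are built from subunits of both genomes, while every subunit of complex II is nuclear. In mitochondria the genes are read as long transcripts that are cut into messages, whereas each nuclear gene has its own promoter. Liver and muscle use different nuclear versions of some complex IV subunits.

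All rats were wild type (WT) and had diet-induced obesity (DIO), with neither strain nor age in the labels. The groups were CagriSema, which pairs the amylin analog cagrilintide with the GLP-1 receptor agonist semaglutide, rats restricted in food to match that group in weight, and vehicle, and the series text gives 20 days of treatment for liver. Liver gave 7 CagriSema, 8 weight-matched and 8 vehicle libraries, and quadriceps gave 8, 8 and 7. Nothing in the labels ties each library to its own rat, so p-values here measure the spread between libraries, which may be technical. Totals were 9888858 to 15948219 counts per liver library and 11462369 to 16525274 per quadriceps library. All 10 hepatocyte markers examined were present in liver, with summed levels of 117483 to 140721 CPM in CagriSema, 121410 to 145919 CPM in weight-matched and 129313 to 147655 CPM in vehicle libraries. Of 9 skeletal muscle markers, 7 had a row and all 7 were present in quadriceps. In bulk tissue, fewer cells of a type and less RNA per cell cannot be told apart.

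Taken over whole libraries, mitochondrial members made up a smaller share of counts in CagriSema livers than in weight-matched livers, while the nuclear share was about the same. The mitochondrial share had a lowest, median and highest value of 4.09%, 4.24% and 5.04% in CagriSema livers, 4.48%, 5.41% and 5.81% in weight-matched livers and 4.25%, 4.97% and 9.29% in vehicle livers. Of the 7 CagriSema livers, 4 lay below every weight-matched liver and all 7 below the weight-matched median. The nuclear share was 0.726%, 0.778% and 0.802% in CagriSema livers, 0.721%, 0.784% and 0.818% in weight-matched livers and 0.713%, 0.745% and 1.61% in vehicle livers, and these ranges overlapped. The log2 ratio of the mitochondrial to the nuclear sum was 2.38, 2.5 and 2.65 in CagriSema livers, 2.55, 2.75 and 2.88 in weight-matched livers and 1.74, 2.66 and 3.43 in vehicle livers. Its mean was 2.52 in CagriSema livers and 2.75 in weight-matched livers, a difference of -0.23, and again 4 of 7 CagriSema livers lay below every weight-matched liver. Both ends of the vehicle range in this ratio were single libraries, Liver4 at 1.74 and Liver6 at 3.43. Without them the vehicle mean was 2.68, the CagriSema difference from vehicle was -0.16, against -0.13 with them, and 4 of 7 CagriSema livers lay below all 6 remaining vehicle livers. The 2 libraries acted in opposite directions on that difference, which was -0.27 without Liver4 alone and -0.02 without Liver6 alone. In no member did 2 groups of a tissue separate fully. Of all genes, groups did not overlap for 1.27% in CagriSema against weight-matched livers, 0.252% in CagriSema against vehicle livers and 0.811% in weight-matched against vehicle livers, and for 0.112%, 0.0962% and 0.385% in the same comparisons of quadriceps. The sums have no test here, since the members were chosen with results known.

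In quadriceps the same ratio ran lowest in CagriSema libraries and highest in vehicle libraries, with overlap. It was 2.52, 2.59 and 2.69 in CagriSema quadriceps, 2.5, 2.64 and 2.79 in weight-matched quadriceps and 2.61, 2.74 and 2.95 in vehicle quadriceps. All 8 CagriSema libraries lay below the vehicle median and 5 of 8 below every vehicle library, with and without Muscle8, the vehicle library at 2.95. The mean difference of CagriSema from vehicle was -0.14, and -0.11 without Muscle8. Here the nuclear share was 2.15%, 2.52% and 2.72% in CagriSema, 1.94%, 2.29% and 2.46% in weight-matched and 1.80%, 2.36% and 2.95% in vehicle quadriceps. The mitochondrial share was 12.5%, 15.0% and 17.1% in CagriSema, 11%, 14.4% and 16.8% in weight-matched and 11%, 14.9% and 22.8% in vehicle quadriceps. Of the 8 CagriSema libraries, 4 had a nuclear share above every weight-matched library, against 1 for the mitochondrial share.

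**Figure D1:**
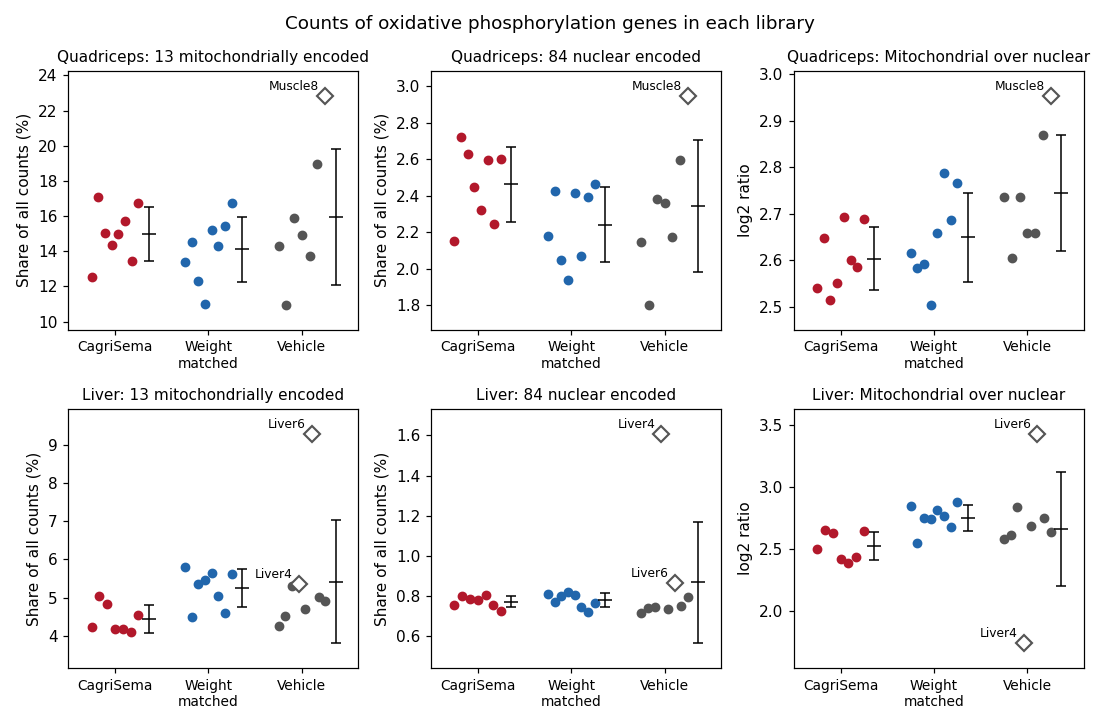
Share of a library's counts from mitochondrial and from nuclear oxidative phosphorylation genes (percent) and the log2 ratio of the 2 sums, with 1 point per library for CagriSema, weight-matched and vehicle rats in liver and quadriceps. In liver the CagriSema ratios lie between 2.38 and 2.65, and the vehicle libraries Liver4 at 1.74 and Liver6 at 3.43 stand apart.

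3 vehicle libraries lay at an end of their group in these genes, each in its own way, and touch every comparison with vehicle. In Liver4, nuclear members were at a median of 3.82 times the median of the 6 vehicle livers other than Liver4 and Liver6, and 68 of 82 exceeded 2 times. The small subunits were among the highest, with Ndufb7 of complex I at 6.45 times and Atp5f1e of complex V at 6.25 times, while the large subunits Ndufs1, Sdha and Uqcrc2 were at 0.804, 0.936 and 1.0 times. Mitochondrial members of Liver4 were split, with Mt-nd3 at 4.76, Mt-nd6 at 3.13 and Mt-co2 at 2.99 times and Mt-nd4, Mt-nd5 and Mt-nd4l at 0.568, 0.408 and 0.170 times. Cytosolic ribosomal proteins took 1.99% of counts in Liver4, and red blood cell markers summed to 560 CPM there, the highest of the liver libraries. Liver6 had a more even excess, with mitochondrial members at 1.91 to 2.45 times and nuclear members at a median of 1.52 times. In Muscle8 mitochondrial members were at 1.29 to 1.83 times and nuclear members at 1.08 to 1.65 times the median of the other 6 vehicle quadriceps. Muscle8 was the top of a spread, with Muscle7 next. Their mitochondrial shares were 22.8% and 19.0%, and their log2 ratios 2.95 and 2.87. Muscle8 had the lowest sum of fast-fibre markers, 70813 CPM, and a slow-fibre sum of 12201 CPM near the highest, 12456 CPM in Muscle7. What made these libraries differ was not tested. The gene names in this paragraph other than Ndufs1, Sdha, Uqcrc2 and Mt-nd6 were chosen after their values were seen.

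**Figure D2:**
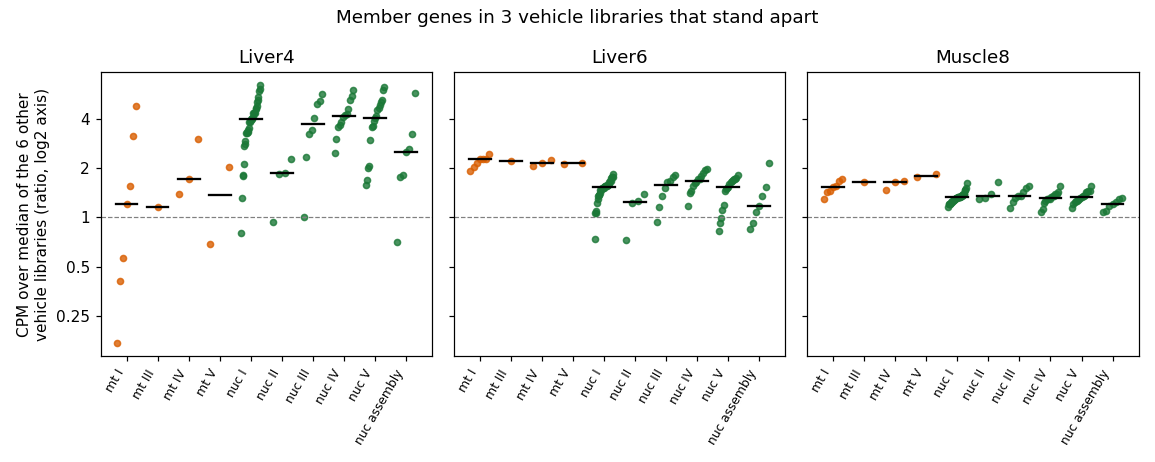
Level of each member in Liver4, Liver6 and Muscle8 as a ratio to the median of 6 other vehicle libraries of the tissue (log2 axis), grouped by complex, with 1 point per gene. Nuclear members centre on 3.82 times in Liver4, and mitochondrial members on 2.15 times in Liver6 and 1.64 times in Muscle8.

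In liver, CagriSema was set against weight matching to ask how the drug pair differs from food restriction to the same weight. Mitochondrial members were lower in CagriSema livers in all 13 cases, with a median log2 fold change of -0.33, while nuclear members centred on -0.03, where 56 were lower and 26 were higher, and all genes had a median of 0.00. When the 3 groups shared 1 estimate of spread, edgeR's quasi-likelihood test called 0 of 95 members at an adjusted p of 0.05, where 0.535% of all genes were called. At an unadjusted p under 0.05 it had 3 members, all mitochondrial and lower, against 5.32% of all genes on the lower side, and DESeq2 called 0, where 1.74% of all genes were called. The spread that the fit shares includes Liver4 and Liver6. Fitted on the CagriSema and weight-matched livers alone, the same test called 8 members lower, 6 of them mitochondrial, and with all 3 groups but without Liver4 and Liver6 it called 8 lower, 7 of them mitochondrial. Of all genes, 4.85% were called in the 2 groups alone, 2.59% lower, and 4.62% without the 2 libraries, where 319 of 12762 genes were lower and 2.12% higher. The fold changes were nearly the same in these fits, and the standard errors were smaller without Liver4 and Liver6. Markers of other cells varied beside this: hepatocyte sums had a median of 125880 CPM in CagriSema and 137020 CPM in weight-matched livers, stellate cell and fibroblast sums 160 and 125 CPM, and red blood cell sums ran from 129 to 187 CPM in CagriSema and 63.7 to 145 CPM in weight-matched livers, and their part in the result was not tested.

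Mt-nd2, a membrane subunit of complex I, had the lowest p of the members in the fit of 3 groups. Its level was 1617, 2031 and 2585 CPM in CagriSema livers, 2506, 2846 and 3570 CPM in weight-matched livers and 1895, 2394 and 4806 CPM in vehicle livers. Of 7 CagriSema livers, 6 were below every weight-matched liver, while against vehicle the ranges overlapped broadly and the highest vehicle value was Liver6. The log2 fold change against weight matching was -0.46 ± 0.16 (SE, adjusted p = 0.229) in the fit of 3 groups, -0.46 ± 0.10 (adjusted p = 0.0149) in the 2 groups alone and -0.46 ± 0.11 (adjusted p = 0.0148) without Liver4 and Liver6. Mt-nd1, another membrane subunit of complex I, had the second lowest p in that fit. It was at 2185, 2720 and 3256 CPM in CagriSema livers, 3128, 3674 and 4024 CPM in weight-matched livers and 2519, 3498 and 7475 CPM in vehicle livers, again with 6 of 7 CagriSema livers below every weight-matched one. The log2 fold change was -0.38 ± 0.17 (adjusted p = 0.418), and -0.37 ± 0.08 in the 2 groups alone (adjusted p = 0.0163).

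In the other mitochondrial messages printed here the CagriSema median was again the lowest of the 3 groups. Mt-atp6, the proton-channel subunit of ATP synthase, was at 3847, 4540 and 5183 CPM in CagriSema livers, 4813, 5812 and 6720 CPM in weight-matched livers and 4607, 5484 and 11276 CPM in vehicle livers, a log2 fold change of -0.33 ± 0.17 against weight matching (adjusted p = 0.510). With the 2 groups alone its adjusted p was 0.0261, and 5 of 7 CagriSema livers were below every weight-matched liver. Mt-co1, the catalytic core of complex IV, was at 15822, 16868 and 19754 CPM in CagriSema livers, 18444, 19985 and 21132 CPM in weight-matched livers and 17576, 20699 and 44159 CPM in vehicle livers. Its log2 fold change against weight matching, -0.20 ± 0.14 (adjusted p = 0.726), was the smallest of the 13, yet 6 of 7 CagriSema livers lay below every weight-matched liver. Mt-cyb, the cytochrome b of complex III, was at 4211, 4935 and 5766 CPM in CagriSema livers, 4671, 5825 and 6969 CPM in weight-matched livers and 4784, 5777 and 12655 CPM in vehicle livers, with a log2 fold change against weight matching of -0.25 ± 0.16 (adjusted p = 0.675). Mt-nd6, the complex I subunit read from the light strand, was at 200, 271 and 287 CPM in CagriSema livers, 280, 316 and 418 CPM in weight-matched livers and 274, 312 and 930 CPM in vehicle livers. Whether counting used strand is not given in the sources used here, so the level of Mt-nd6 cannot be told apart from antisense reads, nor can Mt-atp8 be cleanly split from Mt-atp6, or Mt-nd4l from Mt-nd4, which overlap. Of the 84 nuclear members, 40 have a RefSeq pseudogene entry, and reads could be shared with those copies. In the 2 groups alone, Mt-co2, Mt-nd3 and Mt-nd6 were also called lower, and without Liver4 and Liver6 Mt-co3 joined them.

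How many mitochondrial members were called depended on the libraries kept. Leaving out each of the 15 livers in turn, an alternative added after seeing the data, gave 2 to 7 mitochondrial members called lower, medians from -0.28 to -0.37 and all 13 members lower in each fit. The same fits called 327 to 619 genes in either direction, of 12366 to 12529 tested. The 13 messages are cut from shared long transcripts and can vary together, so they are not 13 separate observations. Mt-nd1 and Mt-nd2 were called in 15 of 15 fits, Mt-atp6 in 14, Mt-nd3 and Mt-nd6 in 5, and Mt-co2 in 4. The fewest calls, 2, came without CagriSema liver 39, the lowest CagriSema library in Mt-nd1, Mt-nd2 and Mt-atp6.

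**Figure D3:**
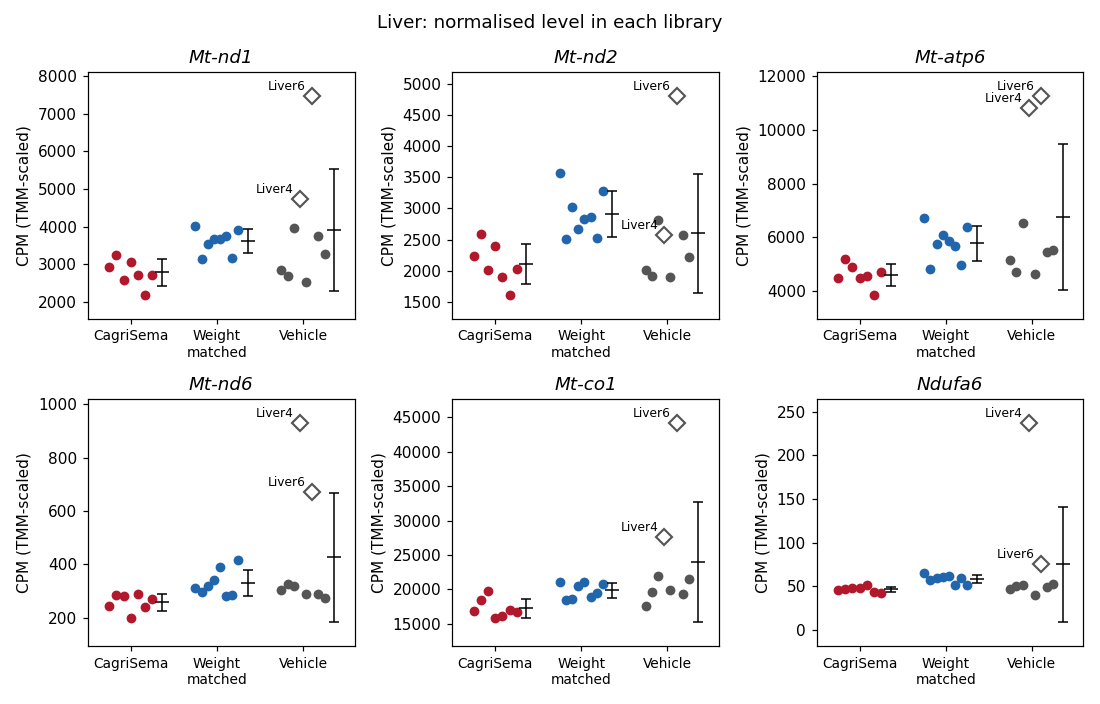
TMM-scaled CPM of 5 mitochondrial messages and of Ndufa6 in every liver library of CagriSema, weight-matched and vehicle rats, with 1 point per library. CagriSema livers lie mostly below weight-matched livers, as for Mt-nd2 at 1617 to 2585 CPM against 2506 to 3570 CPM in weight-matched livers, and the vehicle group holds single libraries far above the rest.

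Among nuclear members in this comparison, Ndufa6 stood nearest to the mitochondrial ones. It encodes an accessory subunit of complex I and is named here because of its values. Its level was 42.6, 46.5 and 51.5 CPM in CagriSema livers, 50.9, 59.6 and 65.4 CPM in weight-matched livers and 39.5, 51.0 and 237 CPM in vehicle livers. Of 7 CagriSema livers, 6 lay below every weight-matched liver, and the highest vehicle value was Liver4. The log2 fold change against weight matching was -0.32 ± 0.28 in the fit of 3 groups (adjusted p = 0.825) and -0.32 ± 0.06 without Liver4 and Liver6 (adjusted p = 0.00699), and Ndufa6 was called in 15 of 15 fits of the 2 groups alone with 1 library left out. The only other nuclear call in the 2 groups alone was Atp5mc2, a gene of the ATP synthase c-ring, at -0.18 ± 0.05, and it has 4 RefSeq pseudogene entries whose reads could mix with it. Complexes I to V differed little, with nuclear medians from -0.08 in complex II to -0.01 in complex I. The Ndufa6 promoter, shown because Ndufa6 was the nuclear gene called lower in both of these fits, lies at chr7:115750268-115750567 on the minus strand (RefSeq, GRCr8, 250 bases before the start to 50 after). Capitals mark 1 match to the ETS-family core CCGGAAG and 1 to the SP1 box GGGCGG, searched on both strands, and the window holds 36 CpG.
Ndufa6: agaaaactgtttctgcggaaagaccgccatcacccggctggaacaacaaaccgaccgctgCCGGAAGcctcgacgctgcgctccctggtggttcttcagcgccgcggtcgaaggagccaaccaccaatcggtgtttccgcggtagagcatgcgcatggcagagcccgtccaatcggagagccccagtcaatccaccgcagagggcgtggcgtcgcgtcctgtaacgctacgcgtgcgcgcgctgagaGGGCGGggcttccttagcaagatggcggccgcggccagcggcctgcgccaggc

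Weight matching against vehicle in liver gave mainly negative fold changes in nuclear members, but not without Liver4 and Liver6. The median was -0.46 over 82 nuclear members, 79 of them lower, and -0.18 over 13 mitochondrial members, 10 of them lower. Without the 2 libraries these medians were 0.02 and 0.14. The quasi-likelihood test called 0 of 95 members, where 7.02% of all genes were called, and at an unadjusted p under 0.05 it had 38 nuclear members, all lower, against 15.1% of all genes on that side. DESeq2 called 2 members lower, Atp5mc1 and Ndufaf8, where 10.6% of all genes were called. Without Liver4 and Liver6 the quasi-likelihood test called 3 members, all higher in weight-matched livers, where 8.16% of all genes were called and 3.59% were higher: Mt-nd2 by 0.38 ± 0.11 (adjusted p = 0.0359), Mt-nd3 by 0.27 ± 0.08 (adjusted p = 0.0365) and Ndufa6 by 0.28 ± 0.07 (adjusted p = 0.0122). In the full fit Mt-nd3 and Ndufa6 had log2 fold changes below 0. The libraries left out stand out in these same genes, Liver6 in Mt-nd2 and Liver4 in Ndufa6 and Mt-nd3. Leaving them out lowers the vehicle level and narrows the spread, so these 3 calls are not an independent test. Red blood cell markers summed to 63.7 to 145 CPM in weight-matched and 122 to 560 CPM in vehicle livers, and 3 of 4 were called lower. Kupffer cell and macrophage markers summed to 209 to 567 CPM and 81.1 to 680 CPM, with 0 of 10 called. Of 10 hepatocyte markers, 1 was called higher and 2 lower. The 1 pancreas marker tested was called lower and the 1 brown adipocyte marker higher. The part of these cells was not tested.

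The 2 lowest p in that comparison belonged to Atp5mc1 and Uqcrq. Atp5mc1, a gene of the proton-carrying c-ring of ATP synthase, was at 80.8, 101 and 113 CPM in weight-matched livers and 100, 117 and 458 CPM in vehicle livers, with 4 of 8 weight-matched livers below every vehicle liver. Its log2 fold change was -0.76 ± 0.24 (adjusted p = 0.0595), and it was called when vehicle liver 2, 5 or 7 was left out, but was -0.34 without Liver4 and -0.20 without Liver4 and Liver6. Uqcrq, a small subunit of complex III, was at 99.3, 111 and 135 CPM in weight-matched livers and 110, 131 and 616 CPM in vehicle livers, with a log2 fold change of -0.80 ± 0.27 (adjusted p = 0.0750). It was called without vehicle liver 7, and its log2 fold change was -0.28 without Liver4 and -0.13 without both libraries. The highest vehicle value of both genes was Liver4. Larger subunits had log2 fold changes near 0. Ndufs1, which holds iron-sulfur clusters of complex I, differed by 0.07 ± 0.08, Sdha, the flavoprotein of complex II, by 0.02 ± 0.08, and Uqcrc2, a core protein of complex III, by 0.03 ± 0.06.

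CagriSema against vehicle in liver had all 13 mitochondrial and 79 of 82 nuclear members lower, with medians of -0.47 and -0.49. Without Liver4 and Liver6 the medians were -0.20 and -0.02, and all 13 mitochondrial members were still lower, while the mitochondrial median was -0.29 without Liver6 alone and the nuclear one -0.12 without Liver4 alone. Markers differed here too: red blood cell sums were 129 to 187 CPM in CagriSema and 122 to 560 CPM in vehicle livers, mesothelium sums 3.32 to 7.96 CPM and 0.991 to 3.40 CPM with both tested markers called higher, and 1 of 10 hepatocyte markers was called lower, and their part was not tested. The quasi-likelihood test called 0 of 95 members, where 0.354% of all genes were called, and at an unadjusted p under 0.05 it had 8 mitochondrial and 50 nuclear members, all lower, against 11.4% of all genes on that side. DESeq2 called 1 member, Mt-co1, where 2.29% of all genes were called. The 2 lowest p were for Mt-co1 at -0.47 ± 0.14 and Mt-atp6 at -0.56 ± 0.17, both with adjusted p = 0.134, and 5 of 7 CagriSema livers for Mt-co1 and 4 of 7 for Mt-atp6 lay below every vehicle liver. Without the 2 libraries Mt-co1 was at -0.21 ± 0.07 (adjusted p = 0.165). The 3 liver comparisons share groups, so their fold changes are not independent of each other.

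**Figure D4:**
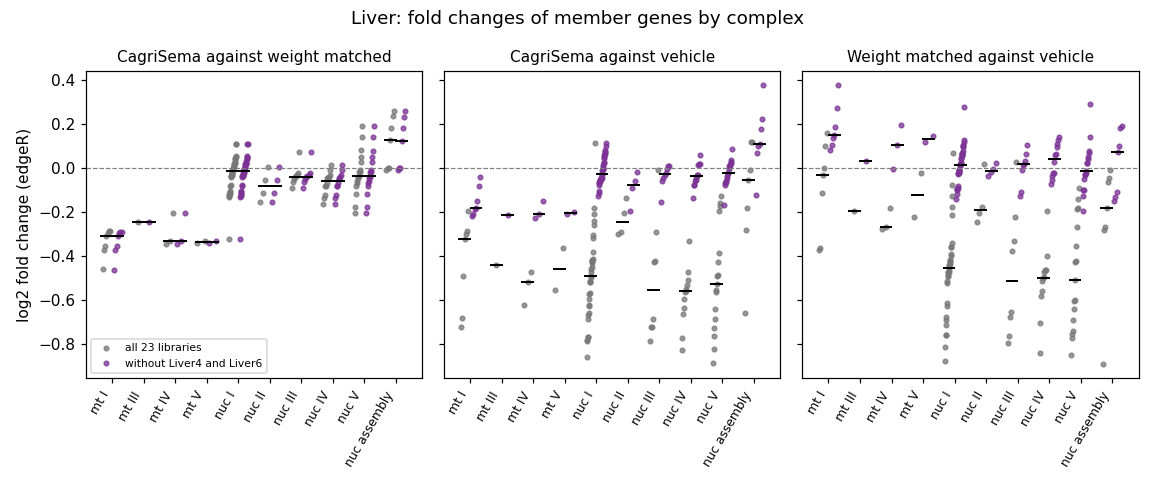
Log2 fold changes from edgeR for each member in the 3 liver comparisons, by genome and complex, with all libraries and without Liver4 and Liver6. Against weight matching, the 13 mitochondrial members lie between -0.46 and -0.20 and nuclear members centre on -0.03, and leaving out the 2 libraries takes the nuclear median of weight matching against vehicle to 0.02 and the mitochondrial one to 0.14, against -0.46 and -0.18 with them.

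In quadriceps, most nuclear members had a small fold change above 0 in CagriSema against either other group, and none passed the quasi-likelihood test. Against weight matching 83 of 84 nuclear members had a fold change above 0, with a log2 median of 0.09, while mitochondrial members had a median of 0.02 with 9 of 13 above 0, and 49.9% of all genes were above 0. The quasi-likelihood test called 0 of 97 members, where 0.128% of all genes were called, and at an unadjusted p under 0.05 it had 11 nuclear members higher and 1 mitochondrial member lower, against 3.40% and 4.25% of all genes on those sides. DESeq2 called 1, Uqcrq, where 0.273% of all genes were called. Members of a tissue vary together between libraries, so the count of 83 does not stand for as many separate observations, and without CagriSema library 34 it was 73. Nuclear medians were close in all complexes, 0.09 in complex I, 0.06 in complex II, 0.13 in complex III, 0.12 in complex IV and 0.11 in complex V.

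Against vehicle, CagriSema quadriceps had 78 of 84 nuclear members above 0, with a log2 median of 0.10, and all 13 mitochondrial members below 0, with a median of -0.07. Without Muscle8 the mitochondrial median was 0.05, and leaving out 1 library at a time moved the nuclear median between 0.04 and 0.15. The test called 0 of 97 members, where 0.0321% of all genes were called, with 5 nuclear members higher and 1 mitochondrial lower at an unadjusted p under 0.05, against 3.74% and 6.58% of all genes, and DESeq2 called 0 as well, where 0.273% of all genes were called. Uqcrh, the hinge protein of complex III, had the lowest p. It was at 106, 114 and 130 CPM in CagriSema, 98.5, 105 and 123 CPM in weight-matched and 82.4, 102 and 116 CPM in vehicle quadriceps, and 3 of 8 CagriSema libraries were above every vehicle library. Its log2 fold change against vehicle was 0.19 ± 0.07 (adjusted p = 0.344).

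Weight-matched quadriceps differed from vehicle by a log2 median of -0.02 over nuclear and -0.08 over mitochondrial members, and by 0.04 and 0.04 without Muscle8. The test called 0 of 97 members, where 2.29% of all genes were called, and 3 nuclear members were lower at an unadjusted p under 0.05, against 10.3% of all genes. DESeq2 called 2 lower, Atp5if1 and Uqcrq, where 5.56% of all genes were called. Atp5if1 encodes the inhibitor of ATP hydrolysis by ATP synthase. It was at 20.5, 24.2 and 34.1 CPM in CagriSema, 15.2, 21.1 and 25.7 CPM in weight-matched and 23.2, 26.3 and 31.6 CPM in vehicle quadriceps, with 6 of 8 weight-matched libraries below every vehicle library. The log2 fold change of weight matching against vehicle was -0.37 ± 0.11 (adjusted p = 0.0740), and it was called without weight-matched library 32.

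Uqcrq was the member with the lowest p in CagriSema against weight-matched quadriceps and one of the 2 lowest in weight-matched against vehicle. It was at 160, 206 and 256 CPM in CagriSema, 113, 137 and 186 CPM in weight-matched and 155, 182 and 271 CPM in vehicle quadriceps. Of 8 CagriSema libraries, 6 were above every weight-matched library, and 5 of 8 weight-matched libraries were below every vehicle library. Its log2 fold change was 0.49 ± 0.12 for CagriSema against weight matching (adjusted p = 0.186) and -0.39 ± 0.12 for weight matching against vehicle (adjusted p = 0.0868), 2 values that share the weight-matched libraries, and the second was called without vehicle library 1. Atp5i, a small subunit in the membrane part of ATP synthase, was at 77.1, 93.1 and 103 CPM in CagriSema, 66.7, 75.1 and 85.0 CPM in weight-matched and 58.3, 77.0 and 104 CPM in vehicle quadriceps. Values on the log2 scale were 0.27 ± 0.09 against weight matching (adjusted p = 0.377) and 0.22 ± 0.09 against vehicle (adjusted p = 0.383), with 6 of 8 CagriSema libraries above every weight-matched one.

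**Figure D5:**
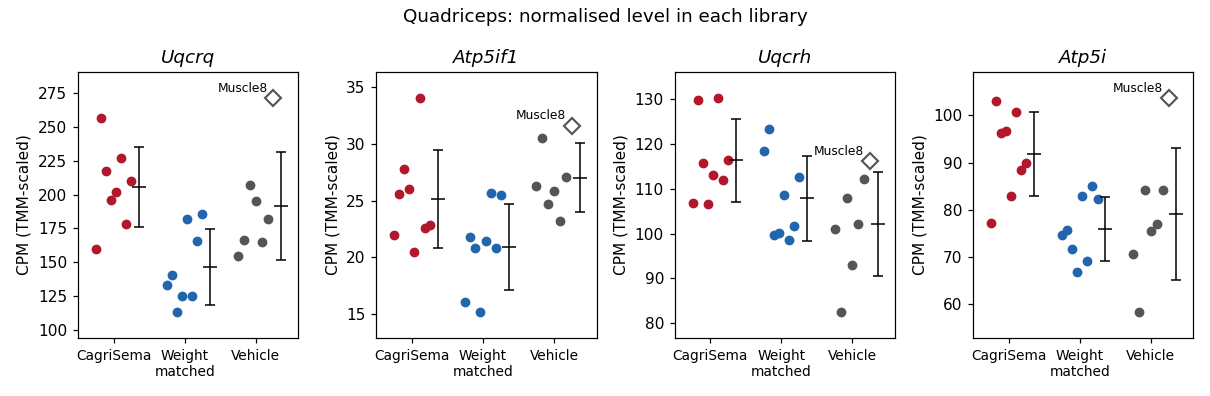
TMM-scaled CPM of Uqcrq, Atp5if1, Uqcrh and Atp5i in every quadriceps library of CagriSema, weight-matched and vehicle rats, with 1 point per library. Weight-matched libraries lie lowest in Uqcrq, at 113 to 186 CPM against 155 to 271 CPM in vehicle, and every pair of groups overlaps.

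The mitochondrial message that stood apart in quadriceps was Mt-nd6. It was at 1009, 1517 and 2496 CPM in CagriSema, 1822, 1932 and 2320 CPM in weight-matched and 1280, 2143 and 2973 CPM in vehicle quadriceps. Of 8 CagriSema libraries, 7 were below and 1 above every weight-matched library. Its log2 fold change was -0.41 ± 0.17 against vehicle (adjusted p = 0.385) and -0.34 ± 0.16 against weight matching (adjusted p = 0.640), while Mt-co1, Mt-cyb and Mt-atp6 were at -0.07 ± 0.12, -0.03 ± 0.13 and -0.06 ± 0.14 against vehicle. Fibre type varied among the same quadriceps libraries: 7 slow-fibre markers summed to 2124, 5108 and 7985 CPM in CagriSema, 408, 1835 and 6095 CPM in weight-matched and 701, 2284 and 12456 CPM in vehicle libraries, with none of the 7 called in any of the 3 comparisons. Of 6 fast-fibre markers, 1 was called higher in weight-matched than in vehicle quadriceps, where 2.29% of all genes were called. None was called for CagriSema against either group. Fast-fibre sums ran from 99453 to 129132 CPM in CagriSema, 107200 to 154400 CPM in weight-matched and 70813 to 127502 CPM in vehicle libraries. The part of fibre type in the quadriceps values was not tested.

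Core subunits that were named whether or not they changed had overlapping levels in the 3 quadriceps groups. Ndufs1 was at 616, 719 and 845 CPM in CagriSema, 575, 701 and 800 CPM in weight-matched and 421, 642 and 935 CPM in vehicle quadriceps. The log2 fold changes of CagriSema against vehicle were 0.11 ± 0.12 for Ndufs1, 0.09 ± 0.09 for Ndufb8 of complex I, 0.13 ± 0.10 for Sdha, 0.01 ± 0.13 for Sdhb, the iron-sulfur protein of complex II, 0.10 ± 0.10 for Uqcrc2, 0.07 ± 0.09 for Uqcrfs1, the Rieske protein of complex III, and 0.13 ± 0.11 and 0.11 ± 0.09 for Atp5f1a and Atp5f1b, the alpha and beta subunits of ATP synthase. None had an adjusted p below 0.66. In liver the same genes gave -0.16 to 0.04 for CagriSema against weight matching.

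Between tissues the members differed far more than between treatments. In vehicle rats, all 13 mitochondrial and 71 of 84 nuclear members were higher in quadriceps than in liver and 2 nuclear members were lower, where 83.4% of all genes were called and 43.4% were lower in quadriceps. The median log2 difference was 1.59 over mitochondrial and 1.24 over nuclear members, and -0.08 over all genes. Cox8b, Cox6a2, Ndufa12, Atp5if1, Atp5s, Ndufaf5, Ndufaf6, Ndufaf7 and Ndufaf8 passed the level through quadriceps alone, so the rule itself set their direction. The nuclear counts and median include them. Without Liver4, Liver6 and Muscle8, 82 nuclear members were higher and 2 lower, where 84.8% of all genes were called and 43.2% were lower. Ndufs1 had the third largest difference among members higher in quadriceps, 2.48 ± 0.11 (adjusted p = 2.53e-25). The test of whether liver and quadriceps differed in their response called 0 of 97 for weight matching, with 24 nuclear and 0 mitochondrial members at an unadjusted p under 0.05, and 0 for CagriSema, with 60 nuclear and 2 mitochondrial, where 2.76% and 0.149% of all genes were called, and 18.6% and 15.0% had an unadjusted p under 0.05. Without the 3 libraries Atp5if1 was called for weight matching, with a liver response above the quadriceps response by 0.62 ± 0.16 (adjusted p = 0.0260), where 2.29% of all genes were called. Its liver level was 8.26, 8.71 and 9.73 CPM in weight-matched and 6.12, 7.58 and 30.9 CPM in vehicle livers. In Liver4 it was at 4.17 times the median of the vehicle livers other than Liver4 and Liver6. The call without the 3 libraries is therefore not an independent test.

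The 3 widest gaps between tissues, in Cox8b, Cox6a2 and Cox6a1, and both members called lower in quadriceps, Cox6a1 and Cox8a, were isoforms of complex IV. Cox8b and Cox6a2 encode muscle forms of the small subunits 8 and 6a, for which Cox8a and Cox6a1 encode the forms found in liver. Cox8b had a pooled level of 187 CPM over the 7 vehicle quadriceps and 1 count over the 8 vehicle livers. That count is 0.00913 CPM with an exact binomial interval of 0.000231 to 0.0509 CPM, so quadriceps was 3667-fold above the upper limit in liver. Cox6a2 had 314 CPM in vehicle quadriceps and 9 counts in 2 of 8 vehicle livers, 0.0822 CPM with an interval of 0.0376 to 0.156 CPM, so quadriceps was 2012-fold above that limit. These intervals cover counting error only. Weight-matched and CagriSema livers had 3 Cox6a2 counts in each group. Skeletal muscle markers summed to 84.3 CPM in vehicle library Liver1, against 1.81 to 4.81 CPM in the other vehicle livers. The part of Liver1 in the liver counts was not tested. Cox8b and Cox6a2 are members only through their quadriceps level, so the rule itself set the direction of these 2 gaps. Cox6a1 was at 27.5, 34.3 and 43.4 CPM in vehicle quadriceps and 128, 147 and 771 CPM in vehicle livers, a log2 difference of -2.67 ± 0.24 (adjusted p = 7.20e-14). Cox8a was at 16.4, 21.7 and 27.3 CPM in vehicle quadriceps and 63.8, 76.2 and 262 CPM in vehicle livers, a log2 difference of -2.22 ± 0.19 (adjusted p = 7.54e-15), and for neither gene did the tissues overlap. Cox4i1 and Ndufa4, used in both tissues, were higher in quadriceps by 0.78 ± 0.19 (adjusted p = 0.000207) and 0.80 ± 0.17 (adjusted p = 2.84e-05).

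No isoform gene passed the test in any treatment comparison. Cox8b was at 154, 212 and 233 CPM in CagriSema, 147, 172 and 202 CPM in weight-matched and 126, 192 and 271 CPM in vehicle quadriceps, with a log2 fold change of 0.24 ± 0.12 against weight matching (adjusted p = 0.661). Cox6a2 was at 286, 338 and 381 CPM in CagriSema, 282, 327 and 356 CPM in weight-matched and 272, 312 and 341 CPM in vehicle quadriceps, with 0.14 ± 0.07 against vehicle (adjusted p = 0.503). Cox4i2 and Ndufa4l2, forms known from low-oxygen cells, stayed below the level set at pooled 0.822, 0.581 and 0.982 CPM and 2.74, 2.49 and 3.70 CPM in CagriSema, weight-matched and vehicle quadriceps. Cox7a1, known as the heart and muscle form of subunit 7a, had 19, 14 and 11 counts over all CagriSema, weight-matched and vehicle quadriceps libraries. No row carried the symbol Cox7a2. Ndufa1 and Ndufs6 of complex I were also near 0, at means of 0.00905 and 0.133 CPM in quadriceps. The part of the annotation used for counting was not tested, so these low counts do not show that the genes are silent.

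The promoters of Cox8b and Cox6a2 are shown because these genes carry the widest differences between tissues, and that of Cox8a because it was called lower in quadriceps. They lie on chromosome 1, minus strand, in GRCr8, at chr1:205408224-205408523 for Cox8b, chr1:192219667-192219966 for Cox6a2 and chr1:213833574-213833873 for Cox8a, 250 bases before the start to 50 after as given by RefSeq, and Cox6a1 is named only. Capitals mark matches on either strand to the muscle-type E-box CAGCTG, the SP1 box GGGCGG, the TATA box TATAAA, the ETS-family core CCGGAAG and the NRF1 palindrome, none of which contains another.
Cox8b: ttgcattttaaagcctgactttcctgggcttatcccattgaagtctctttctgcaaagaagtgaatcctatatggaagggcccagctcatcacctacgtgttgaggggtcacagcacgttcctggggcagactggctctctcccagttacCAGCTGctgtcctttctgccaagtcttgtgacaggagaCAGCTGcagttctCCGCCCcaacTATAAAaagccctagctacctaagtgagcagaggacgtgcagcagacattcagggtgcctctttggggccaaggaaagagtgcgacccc
Cox6a2: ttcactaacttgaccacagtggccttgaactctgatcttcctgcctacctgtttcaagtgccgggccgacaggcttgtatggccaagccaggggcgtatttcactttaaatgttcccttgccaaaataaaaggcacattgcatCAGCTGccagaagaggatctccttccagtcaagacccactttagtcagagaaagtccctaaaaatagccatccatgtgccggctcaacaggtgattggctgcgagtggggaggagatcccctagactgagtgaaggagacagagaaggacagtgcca
Cox8a: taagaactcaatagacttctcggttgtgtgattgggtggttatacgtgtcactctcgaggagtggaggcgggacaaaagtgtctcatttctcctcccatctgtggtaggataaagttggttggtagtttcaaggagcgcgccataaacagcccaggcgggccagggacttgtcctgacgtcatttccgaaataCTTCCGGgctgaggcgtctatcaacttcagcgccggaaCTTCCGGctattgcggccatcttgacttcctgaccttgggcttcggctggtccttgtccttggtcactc

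The Cox8b window holds 2 E-boxes, 1 SP1 box, 1 TATA box and 5 CpG, and the Cox6a2 window 1 E-box and 5 CpG. The Cox8a window holds 2 ETS-family cores and 16 CpG. Over the 74 nuclear members with a promoter in the table, 6 (8.11%) held the NRF1 palindrome against 0.852% of all 33469 promoters, and 21 (28.4%) held the ETS-family core against 8.75%. The SP1 box was in 39.2% of member promoters against 33.1%, the E-box in 14.9% against 15.1% and the TATA box in 9.46% against 14.2%. Member promoters had a median of 20 CpG against 7 over all promoters. A match is a string of letters and not a measured binding site.

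Regulators and neighbours of the pathway had few calls. Over 124 genes of 6 lists tested in quadriceps, the quasi-likelihood test and DESeq2 each called 0 in every comparison. For CagriSema against weight matching, 7 had an unadjusted p under 0.05, where 3.40% of all genes were higher and 4.25% lower. For CagriSema against vehicle it was 8, where 3.74% were higher and 6.58% lower. For weight matching against vehicle it was 12 in either direction, where 10.3% of all genes were lower, a share that leaves out those that were higher. In the same order the quasi-likelihood test called 0.128%, 0.0321% and 2.29% of all genes, and DESeq2 0.273%, 0.273% and 5.56%. Over 123 in liver the quasi-likelihood test and DESeq2 each called 0 for CagriSema against weight matching. Of all genes they called 0.535% and 1.74%. At an unadjusted p under 0.05 there were 2 in either direction. Of all genes, 5.32% were lower at that p, a share that leaves out genes that were higher. For CagriSema against vehicle in liver the quasi-likelihood test called 0, where 0.354% of all genes were called. DESeq2 called 1, Etfdh, where 2.29% were called. At an unadjusted p under 0.05 there were 18 in either direction. Of all genes, 11.4% were lower at that p, which again leaves out those that were higher, so the count shows no excess. Ppargc1a, the coactivator of mitochondrial biogenesis, was at 26.2 ± 3.6 CPM in CagriSema, 25.5 ± 3.4 CPM in weight-matched and 21.0 ± 5.4 CPM in vehicle quadriceps (SD, n = 8, 8 and 7), with a log2 fold change of 0.32 ± 0.13 for CagriSema against vehicle (adjusted p = 0.369). Tfam, which packs mitochondrial DNA and starts its transcription, was at 28.7 ± 3.0 CPM in CagriSema, 31 ± 3.0 CPM in weight-matched and 32.3 ± 6.9 CPM in vehicle livers (SD, n = 7, 8 and 8). Lrpprc, which stabilises mitochondrial messages, was at 140 ± 13 CPM in CagriSema, 160 ± 24 CPM in weight-matched and 139 ± 21 CPM in vehicle livers, a log2 fold change of -0.19 ± 0.10 for CagriSema against weight matching (adjusted p = 0.556). Over Ppargc1a, Tfam, Nrf1, Esrra, Lrpprc, Cycs and Cyc1, log2 fold changes for CagriSema against weight matching ran from -0.19 to 0.12 in liver and -0.02 to 0.09 in quadriceps.

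Weight matching against vehicle in liver was the one comparison with calls by the quasi-likelihood test in these lists, 5 of 123 genes, where 7.02% of all genes were called. Idh2, the NADP-linked isocitrate dehydrogenase of mitochondria, rose to 119 ± 15 CPM in weight-matched livers, against 68.6 ± 14.6 CPM in vehicle livers (SD, n = 8 each), a log2 fold change of 0.79 ± 0.14 (adjusted p = 0.00144), and was the 1 call among 15 genes of the tricarboxylic acid cycle list. Etfdh, which passes electrons from fatty acid oxidation to ubiquinone, fell to 185 ± 29 CPM in weight-matched livers, against 240 ± 21 CPM in vehicle livers, by 0.38 ± 0.08 (adjusted p = 0.00867), the 1 call among 17 genes of mobile carriers and electron entry. Of 40 assembly factors outside the members, 3 fell: Sdhaf2 of complex II by 0.29 ± 0.06 (adjusted p = 0.00631), Pet100 of complex IV by 0.68 ± 0.21 (adjusted p = 0.0479) and Tmem70 of ATP synthase by 0.37 ± 0.12 (adjusted p = 0.04997). Without Liver4 and Liver6 Pet100 was at -0.25 (adjusted p = 0.0923) and Tmem70 at -0.21 (adjusted p = 0.0440), and without Liver4 alone they were at -0.36 and -0.22. None of 19 genes of mitochondrial DNA maintenance, 16 of mitochondrial RNA processing or 16 regulators passed, with 2, 2 and 2 at an unadjusted p under 0.05 and 0 by DESeq2 in each list. Of all genes, 15.1% were lower at that unadjusted p, and DESeq2 called 10.6%. The 15.1% leaves out genes that were higher, while the counts in these lists cover either direction.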

How the data were processed

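RNA was extracted with the RNeasy Minikit and libraries carried Twist unique molecular identifiers, per the labels' protocols. Reads were trimmed with fastp 0.23.1 and aligned with STAR 2.5.2b, per the submitters' processing notes. No source used here gives the counting program, genome build, strand setting or use of the identifiers. The authors deposited raw counts per gene, used as deposited, and 1 count column that matched no label was left out. Groups came from the labels.

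Counts were TMM-scaled, filtered with filterByExpr and tested with edgeR 4.0.16 (R 4.3.3), the quasi-likelihood F test with Benjamini-Hochberg adjustment over all genes at 0.05, within each tissue over its 3 groups and over both tissues for tissue differences. SE is the log2 fold change over the root of F. The scripts were tested on simulated data. The members and lists were chosen with earlier results of these data known.

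Named genes were Mt-co1, Mt-cyb, Mt-atp6 and Mt-nd6, fixed core subunits, isoforms and regulators, called members with the lowest p, or the 2 lowest p where none passed. Others were named after their values were seen: Ndufa6, Atp5mc2, Ndufaf8, Mt-nd1, Mt-nd2, Mt-nd3, Mt-co2 and Mt-co3. Alternatives were DESeq2 1.42.0, its size factors, no filter, scaling without mitochondrial genes, 2 groups alone, leaving out libraries and a replicate block.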

Additional observations from a re-analysis of the deposited data

Results flagged for a closer look

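In 8 of 54 groups of values examined, 1 library lay far from the other 7 by Dixon's criterion, and chance gives about 1 in 20. All 8 were vehicle livers. Liver6 had a mitochondrial share of 9.29%, against 4.25% to 5.37% in the others, and its Mt-nd1 was at 7475 CPM (others 2519 to 4736), Mt-nd2 at 4806 CPM (1895 to 2815), Mt-co1 at 44159 CPM (17576 to 27568) and Mt-cyb at 12655 CPM (4784 to 6972). Liver4 had a nuclear share of 1.61%, against 0.713% to 0.864% in the others, with Ndufa6 at 237 CPM (39.5 to 75.2) and Atp5mc1 at 458 CPM (100 to 196). These values share their libraries and are not 8 separate events.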

How the results depend on the processing

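Counts of called members moved as follows. DESeq2 called 2 in liver for weight matching against vehicle, 1 in liver for CagriSema against vehicle, 2 in quadriceps for weight matching against vehicle and 1 in quadriceps for CagriSema against weight matching. Without Liver4 and Liver6, which stand out in these same genes, weight matching against vehicle had 3 in liver. CagriSema against weight matching had 8 there, and 8 in the 2 groups alone, where leaving out 1 library gave 3, 4, 5, 6, 7 or 8. Without the 3 libraries the interaction for weight matching had 1, with and without the replicate block. Without Liver4 and Liver6 the weight-matched medians against vehicle were 0.14 (mitochondrial) and 0.016 (nuclear), and the nuclear CagriSema median against vehicle was -0.024. For weight matching against vehicle in liver, Ndufa6 turned to 0.17 with DESeq2 and 0.28 without Liver4 and Liver6, and Mt-nd3 to 0.11 and 0.27. Leaving out 1 library at a time, called members numbered 0 to 3 for weight matching against vehicle in liver and 0 to 1 in quadriceps, while Ndufa6 ran from -0.46 to 0.17 and Mt-nd3 from -0.46 to 0.11. The cause was not tested.

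The replicate block alone changed no call in the 2 interactions and gave 90 members called between tissues. The labels do not say what a shared number marks. Of 22 same-numbered liver and quadriceps libraries only 6 correlated above 0.1, so numbers were not taken as pairs, although 18 correlated best with their own number, a hint of pairing from the data.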
